A study of Mus musculus with 4 samples.

Results

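The vascular basement membrane genes described here were Col4a1, Col4a2, Lama4, Lama5, Lamb1, Lamc1, Nid1, Hspg2 and Sparc, 9 of the 20076 genes in the deposited counts matrix. They were chosen by name, as genes for components of the sheet of matrix beneath lung endothelium, with earlier results of these data known. All 9 were detected.

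The basement membrane is a thin layer of extracellular matrix on which endothelial cells (ECs) rest and in which pericytes are embedded. Laminins, trimers of an alpha, a beta and a gamma chain, form a network at the cell surface, and collagen IV forms another beneath it. Nidogen and the proteoglycan perlecan link both networks, and Sparc is a secreted protein that binds collagen and is needed for collagen to be deposited in an orderly way. In the lung, capillary endothelium shares much of its basement membrane with the alveolar epithelium, and fibroblasts and mural cells (pericytes and smooth muscle cells) make part of it.

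Whole lungs from 4 mice were made into single-cell suspensions, 1 mouse to a library, and single-cell RNA-seq was done on a 10x Genomics platform. Of these, 2 libraries were labelled WT, from Erg fl/fl mice, and 2 were labelled ERG CKO, from CDH5-CreER(T):Erg fl/fl mice. In the latter a Cre recombinase under the Cdh5 promoter, which is active in ECs, removes Erg, an ETS transcription factor of ECs, once tamoxifen is given. All 4 mice, of the C57/BL6 strain, carried the floxed alleles and received 5 injections of 0.5 mg tamoxifen, and the lungs were taken 90 days later. Age is not given for these mice in the sources used here.

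The matrix held 9363 cells, from 1852 to 3097 a library, with 11263911 to 18646776 unique molecular identifiers (UMIs, each standing for 1 captured RNA molecule) a library. Erg, the targeted gene, did not separate the groups: in ECs it stood at 85.6 and 86.7 CPM (a gene's UMIs scaled to the UMIs of its class and library) in the libraries labelled WT and at 105.6 and 83.0 CPM in those labelled ERG CKO. Where the counted tags lie relative to the deleted exon is not given in the sources used here, so these counts may not check the deletion, and every direction below rests on the labels. Clusters were named from marker genes, and these names were rebuilt from the matrix: each library held 496 to 725 EC-like, 27 to 187 fibroblast-like and 14 to 69 mural-like cells, and below they are called ECs, fibroblasts and mural cells. Among ECs, clusters 0, 2 and 6 were gCap-like (general capillary cells), cluster 3 aCap-like (aerocytes, the large capillary cells of gas exchange), cluster 5 vein-like, cluster 7 artery-like and cluster 8 lymphatic-like, while cluster 4 (179 cells) also carried platelet markers and cluster 9 (23 cells) B cell markers. Among ECs a marker counted at any fold above 0, a looser rule than for the other classes. The gCap markers averaged a log2 fold of 0.47, 0.45 and 0.63 in clusters 0, 2 and 6. None of them was among the leading genes of these clusters. EC cluster 1, with 565 cells, came nearest to gCap. It stayed unnamed because artery markers (Cxcl12 and Hey1) were among its leading genes. Fewer cells were found in the second library labelled ERG CKO, with 27 fibroblasts and 14 mural cells.

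The loci are given on GRCm38 (mm10). Col4a1 (chr8:11198423-11312826, minus strand) and Col4a2 (chr8:11312805-11449287, plus strand) lie head to head and share 22 bases at their starts. Lama4 lies at chr10:38965515-39110188, Lama5 at chr2:180176373-180225859, Lamb1 at chr12:31265234-31329644 and Lamc1 at chr1:153218922-153332786. Nid1 lies at chr13:13437551-13512269, Hspg2 at chr4:137468769-137570630 and Sparc at chr11:55394500-55423183.

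Erg binds DNA through an ETS domain that recognises a GGAA core. The 250 bases before each RefSeq start were searched on either strand for CAGGAA and CCGGAA, which cannot both match at the same GGAA core. Of 32817 mouse promoters, 35.0% held at least 1 of them. Among the 7 members found in the table (Lama4 and Lamc1 were not), 1 held a match: Nid1, with CAGGAA starting 242 and CCGGAA starting 167 bases before the start. Shown are the parts outside annotated exons for Nid1 and for Hspg2 and Lama5, which stood on opposite sides in gCap ECs, at chr13:13437352-13437550 (plus), chr4:137468553-137468768 (plus) and chr2:180225860-180226109 (minus) of GRCm38.p6, with matches in capitals.
Nid1: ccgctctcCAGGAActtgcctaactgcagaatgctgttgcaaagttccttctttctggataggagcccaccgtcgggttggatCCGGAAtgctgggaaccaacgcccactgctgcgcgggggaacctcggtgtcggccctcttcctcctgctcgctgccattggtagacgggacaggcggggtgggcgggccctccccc
Hspg2: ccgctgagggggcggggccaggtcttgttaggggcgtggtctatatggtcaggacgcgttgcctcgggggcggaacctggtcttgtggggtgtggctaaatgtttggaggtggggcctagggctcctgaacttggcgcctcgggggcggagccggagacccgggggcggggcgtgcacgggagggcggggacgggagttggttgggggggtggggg
Lama5: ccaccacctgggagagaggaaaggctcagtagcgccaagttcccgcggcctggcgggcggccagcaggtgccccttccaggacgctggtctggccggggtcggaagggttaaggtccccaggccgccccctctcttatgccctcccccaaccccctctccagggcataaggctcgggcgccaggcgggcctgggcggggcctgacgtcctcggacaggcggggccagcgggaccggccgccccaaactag
The windows of Col4a1 and Col4a2 lie in annotated exons, and are not shown. A match of these letters is a description of the sequence, and no binding was measured in these libraries.

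Col4a1 and Col4a2 encode the paired chains of the common collagen IV network. In ECs, Col4a1 stood at 532 and 467 CPM in the libraries labelled WT and at 869.7 and 717 CPM in those labelled ERG CKO. Mural cells held more, at 1306 and 1205 CPM against 1634 and 2338 CPM, and fibroblasts held 557 and 366 CPM against 628 and 709 CPM. In each of these 3 classes both libraries labelled ERG CKO were above both labelled WT. In mural cells, 1 cell gave 41.8% and 54.3% of the Col4a1 UMIs of the libraries labelled ERG CKO. T cells, which should lack the gene, held 2.10 to 8.42 CPM, and the source of these UMIs was not tested.

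Col4a2 followed Col4a1. Its levels in ECs were 306 and 243 CPM against 459 and 368 CPM, and in mural cells 884 and 767 CPM against 1005 and 1670 CPM, without overlap in either class. Of the UMIs of both chains together, Col4a1 took 62.6% and 66.5% in the gCap ECs labelled WT and 65.8% and 65.5% in those labelled ERG CKO, and in mural cells between 58.3% and 61.9%. The log2 ratio of Col4a1 to Col4a2 in gCap ECs was 0.87 ± 0.17 (SD, n = 2) and 0.93 ± 0.012 (SD, n = 2), and the groups overlapped (exact permutation test, two-sided p = 1.0, the smallest possible being 0.33). In aCap ECs that ratio was higher without overlap, at 0.57 and 0.62 against 0.83 and 1.02 (exact permutation test, p = 0.33). In EC cluster 6 it was also higher, at 0.90 and 0.78 against 1.21 and 1.15. In artery ECs, with few UMIs, it was lower, at 2.059 and 1.652 against 1.648 and 1.044. The share is of tags counted and not of protein chains.

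Lama4 and Lama5 encode the alpha chains of the endothelial laminins, alpha4 in laminin 411 and alpha5 in laminin 511. Lama5 was mainly endothelial: ECs held 71.4% ± 3.8 (SD, n = 2) of its UMIs in the libraries labelled WT and 63.7% ± 7.1 (SD, n = 2) in those labelled ERG CKO. Lama4 came mainly from fibroblasts and mural cells in the libraries labelled WT, where ECs held 16.5% ± 10.6 (SD, n = 2) of it, and ECs held 43.1% ± 7.8 (SD, n = 2) in those labelled ERG CKO. Without alignment of the libraries these 2 means were 8.49% and 39.0%, and after thinning each cell to 1000 UMIs 22.1% and 46.5%. Such shares also move with the number of cells of each class, which ran from 14 to 69 mural cells and from 27 to 187 fibroblasts a library, and their part in the difference was not tested.

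**Figure D1:**
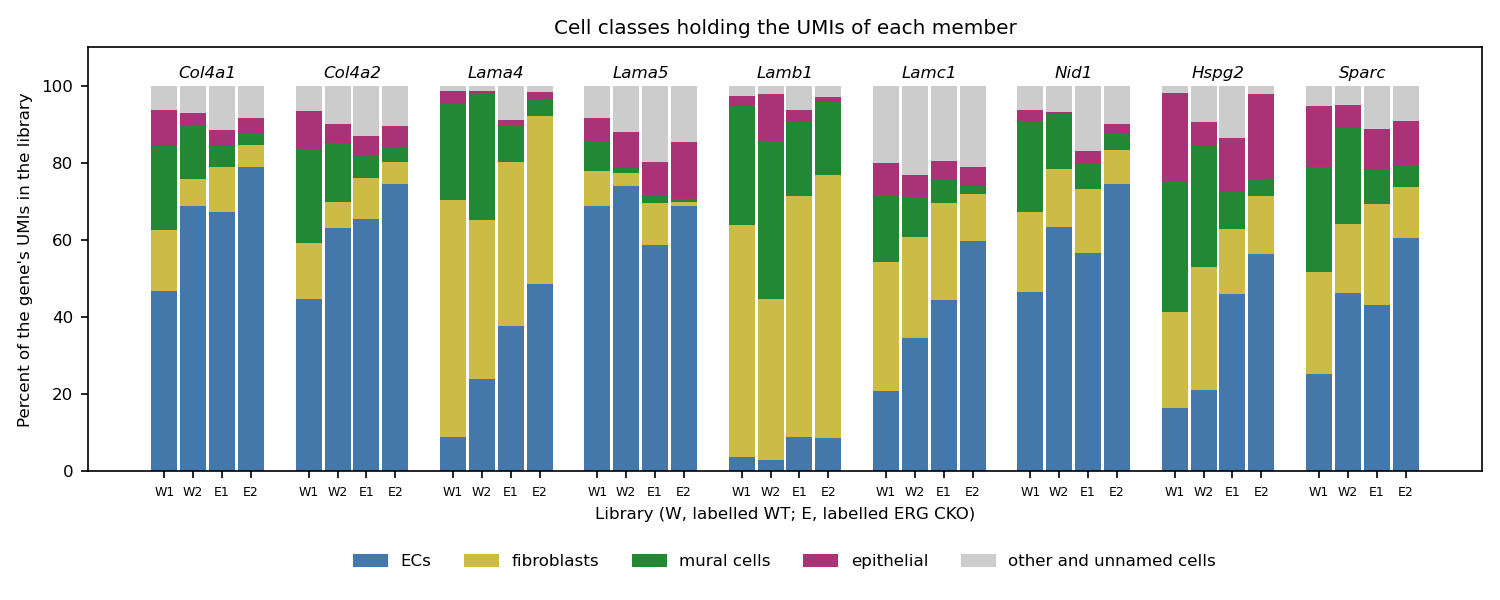
Percent of each member's UMIs in a library (vertical axis) held by ECs, fibroblasts, mural cells, epithelial cells and all other cells, with 1 bar for each library. Lama5 bars are mostly ECs in all 4 libraries, Lamb1 bars are mostly fibroblasts and mural cells, and the EC part of Lama4 and Hspg2 is larger in both libraries labelled ERG CKO.

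In gCap ECs, Lama4 rose from 3.67 and 3.38 CPM (5 and 5 UMIs) in the libraries labelled WT to 31.7 and 36.1 CPM (50 and 31 UMIs) in those labelled ERG CKO. Lama5 stood at 77.1 and 73.6 CPM against 45.6 and 51.2 CPM, lower in both libraries labelled ERG CKO. After thinning each cell to 1000 UMIs the Lama5 difference turned, to a log2 fold change of 0.23 (SE 0.34). Without thinning the log2 fold changes were 3.18 (SE 0.38, adjusted p = 0.000411) for Lama4 and -0.69 (SE 0.20, adjusted p = 0.0831) for Lama5 in edgeR. Lama4 passed the filter on low counts only through the libraries labelled ERG CKO, so its adjusted p is a description. Of the UMIs of both alpha chains, Lama5 took 95.5% (95% Wilson interval 89.8% to 98.0%) and 95.6% (90.1% to 98.1%) in the libraries labelled WT, and 59.0% (50.1% to 67.3%) and 58.7% (47.4% to 69.1%) in those labelled ERG CKO. These intervals cover counting error only. The log2 ratio of Lama5 to Lama4 was 4.42 ± 0.038 (SD, n = 2) against 0.52 ± 0.015 (SD, n = 2), with no overlap and an exact permutation p = 0.33, the smallest that 2 against 2 libraries can give.

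Elsewhere the alpha chains kept other proportions. Lama5 took 94.3% and 91.9% of both in EC cluster 1 of the libraries labelled WT and 77.8% and 84.8% in those labelled ERG CKO. In fibroblasts its share was 11.5% and 11.8% against 23.0% and 3.92%, and in mural cells 21.9% and 5.88% against 18.9% and 16.7%, so the groups overlapped in both. Lymphatic ECs, at 3 to 8 cells a library, held 171 to 779 CPM of Lama4, above the other named EC classes, and 0 to 88.9 CPM of Lama5. With so few cells these lymphatic values carry no test.

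**Figure D2:**
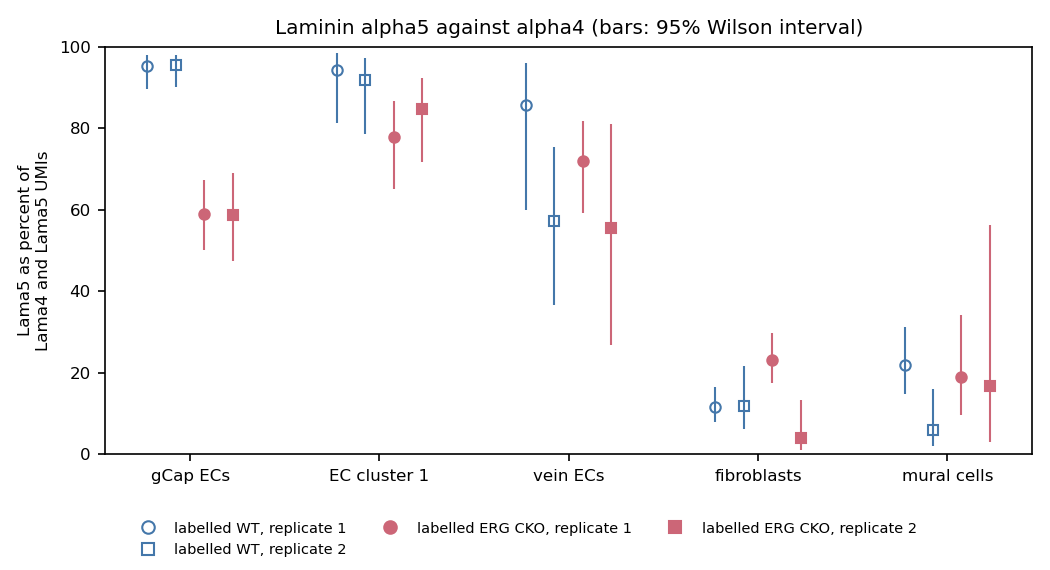
Lama5 as a percent of Lama4 and Lama5 UMIs (vertical axis) by cell class, 1 point for each library, with 95% Wilson intervals. The gCap ECs labelled WT sit at 95.5% and 95.6% and those labelled ERG CKO at 59.0% and 58.7%, while fibroblasts and mural cells stay under 25% in all libraries.

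Lamb1 encodes the beta1 chain, which most laminins of vessels share. It was close to undetected in ECs, at 4.06 and 1.26 CPM against 4.56 and 2.23 CPM, and its groups overlapped there. Fibroblasts held 194 and 135 CPM against 133 and 238 CPM, and mural cells 172 and 219 CPM against 231 and 434 CPM. ECs held 3.44% ± 0.58 (SD, n = 2) of its UMIs in the libraries labelled WT and 8.78% ± 0.12 (SD, n = 2) in those labelled ERG CKO. After thinning each cell to 1000 UMIs these means were 2.97% and 16.8%.

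Lamc1 encodes the gamma1 chain, present in nearly all laminins. In ECs it rose from 32.5 and 35.5 CPM to 59.5 and 67.3 CPM (log2 fold change 0.85, SE 0.14, adjusted p = 0.0285, edgeR). In gCap ECs it rose from 20.5 and 21.6 CPM to 51.9 and 47.7 CPM (1.21, SE 0.24, adjusted p = 0.00985, edgeR). Both libraries labelled ERG CKO lay above both labelled WT. Levels in aCap ECs were already higher in the libraries labelled WT, at 108 and 103 CPM, and there the libraries labelled ERG CKO, at 105 and 146 CPM, overlapped with them. Fibroblasts held 160.4 and 211 CPM against 140.5 and 187 CPM.

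Nid1 encodes nidogen-1, the linker of laminin and collagen IV. Its levels in ECs were 89.3 and 87.0 CPM against 106 and 115 CPM, without overlap, and the change did not pass the test (log2 fold change 0.28, SE 0.12, adjusted p = 0.299, edgeR). In aCap ECs it stood at 145 and 149.7 CPM against 127 and 192 CPM. Mural cells held most, at 238 and 256 CPM against 292 and 568 CPM.

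Hspg2 encodes perlecan, a heparan sulfate proteoglycan. In gCap ECs it rose from 2.20 and 4.05 CPM (3 and 6 UMIs) to 38.6 and 26.8 CPM (61 and 23 UMIs), with a log2 fold change of 3.34 (SE 0.43, adjusted p = 0.000632, edgeR). Hspg2 passed the filter on low counts there only through the libraries labelled ERG CKO, so this adjusted p is a description. Over all ECs its levels were 12.9 and 5.65 CPM against 31.7 and 18.2 CPM, and the change did not pass the test (1.45, SE 0.41, adjusted p = 0.128, edgeR). Mural cells held 141 and 109.6 CPM against 151 and 134 CPM, with overlap. Artery ECs of the first library labelled WT held 227 CPM, of which 60.9% came from 1 cell, while the other 3 libraries ranged from 18.8 to 74.1 CPM.

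Sparc encodes the secreted collagen-binding protein named above. Mural cells held 2329 and 2808 CPM against 2554 and 4375 CPM, and fibroblasts 1310.3 and 1214 CPM against 1298 and 1535 CPM, with overlap in both. In gCap ECs it stood at 405 and 510.1 CPM against 526 and 558 CPM, a difference that did not pass the test (log2 fold change 0.21, SE 0.17, adjusted p = 0.681, edgeR). In aCap ECs it rose from 120.1 and 93.6 CPM (39 and 50 UMIs) to 425 and 409 CPM (287 and 230 UMIs), with a log2 fold change of 1.97 (SE 0.21, adjusted p = 1.28e-06, edgeR). The share of aCap ECs with a Sparc UMI was 34.9% and 20.8% against 76.6% and 77.4%, at median depths of 6992 and 7467 against 5965 and 5725 UMIs a cell. After thinning each cell to 1000 UMIs, with no aCap cell too shallow, it was 6.98% and 5.56% against 31.8% and 28.0%, while T cells held 0% to 0.718%. The aCap ECs labelled ERG CKO thus lay near the gCap ECs in Sparc, and those labelled WT lay below them.

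**Figure D3:**
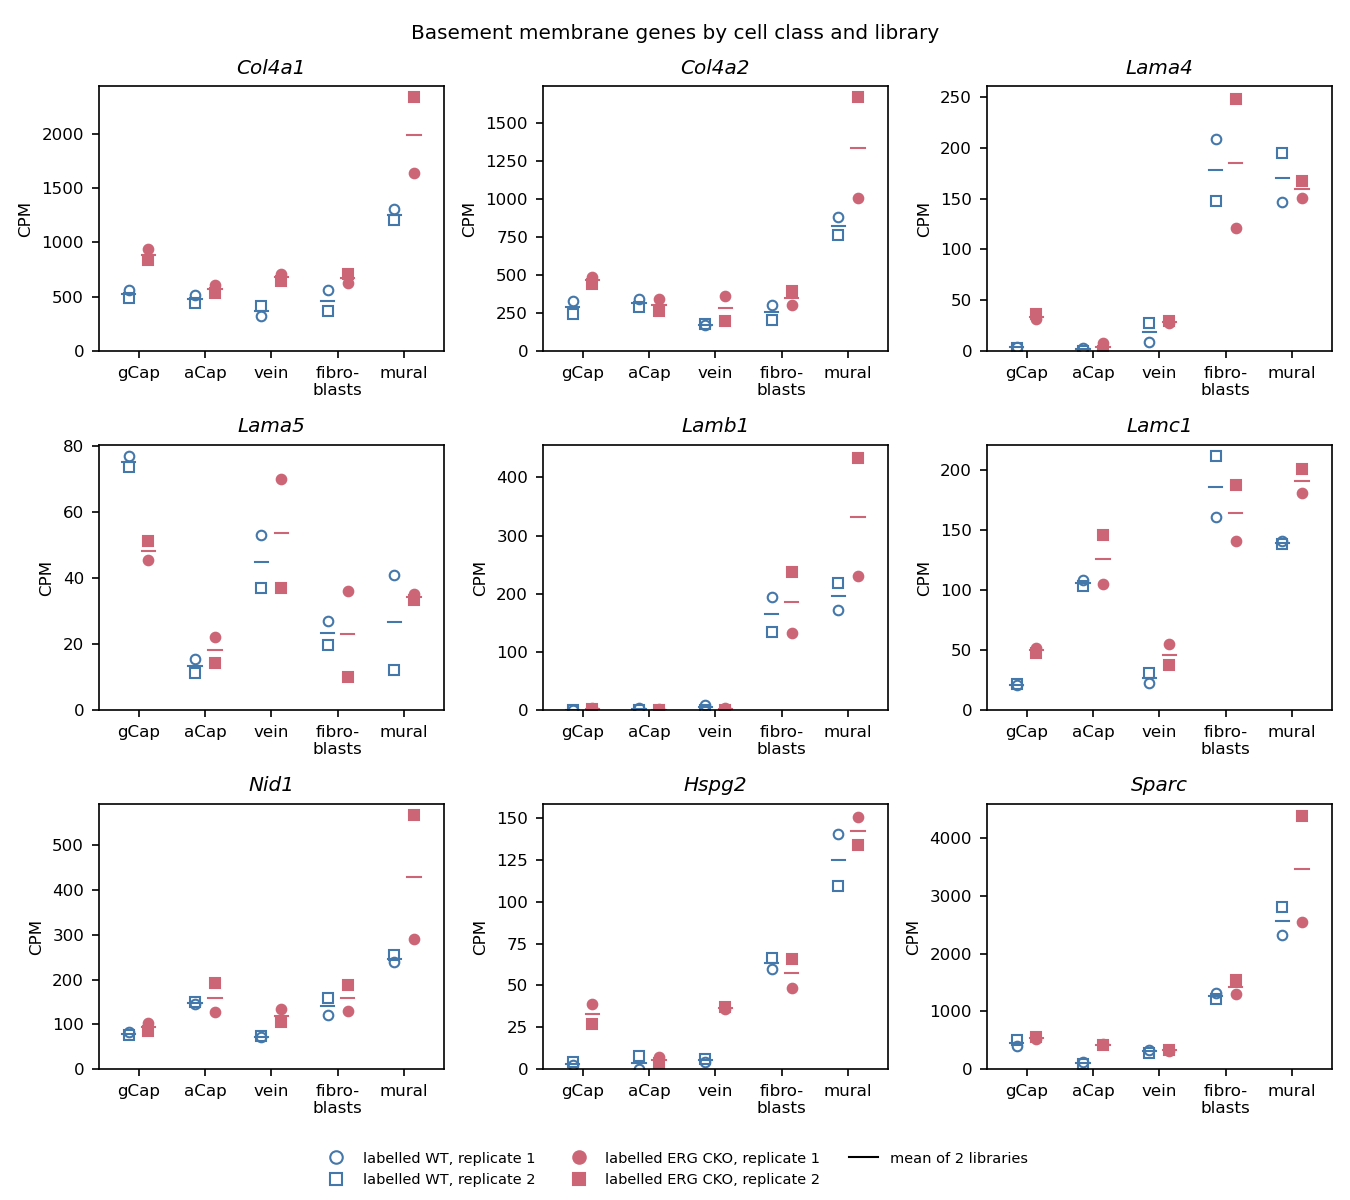
CPM of each member (vertical axis) in gCap, aCap and vein ECs, fibroblasts and mural cells, with 1 point for each library and a line at the mean of each pair. The libraries labelled ERG CKO sit above those labelled WT for Lama4, Lamc1 and Hspg2 in gCap ECs and for Sparc in aCap ECs, and Lama5 sits below in gCap ECs.

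The first question was whether these genes differed between the genotypes in ECs as a whole. Of the 9 members, 7 were higher and 1 lower in ECs with no overlap between the groups of libraries, and the same non-overlap was met by 46.6% of all genes tested there. In edgeR, Lamc1 passed the adjusted p threshold of 0.05, being the 1 called of 9 members, where 2.84% of all genes were called. Fibroblast markers in ECs were summed at 73.1 and 59.4 CPM against 127 and 141 CPM, and platelet markers at 65.7 and 128 CPM against 317 and 179 CPM. Lower in both libraries labelled ERG CKO were EC markers, at 21206 and 22108 CPM against 17409 and 18756 CPM. So were mural markers, at 107 and 134 CPM against 88.4 and 57.3 CPM. The part of these lists in the result was not tested. Col4a1 (log2 fold change 0.63, SE 0.15, adjusted p = 0.0852) and Lama4 (1.11, SE 0.23, adjusted p = 0.0558) did not pass. The median log2 fold change over the members was 0.56, and over all genes 0.0074. The Lamc1 call was lost without either library labelled WT (0 members called in each case), and 5 members were called without the second library labelled ERG CKO.

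In gCap ECs, 8 of the 9 members passed the filter on low counts, all but Lamb1, and 4 were called higher: Col4a1 (log2 fold change 0.73, SE 0.16, adjusted p = 0.0198, edgeR), Lama4, Lamc1 and Hspg2. Of all genes 3.61% were called. Lama4 and Hspg2 were low enough in the libraries labelled WT to pass the filter only through those labelled ERG CKO, so the count of 4 is a description. Groups did not overlap for any of the 9, with 8 higher and Lama5 lower, against 43.8% of all genes tested. Lamb1 was not among the genes tested, and stood at 1 and 1 UMIs against 6 and 1 UMIs. Nothing is therefore read from its non-overlap, and that of Lama4 and Hspg2 is also a description. Col4a2 was higher by a similar amount to Col4a1 but did not pass (0.65, SE 0.19, adjusted p = 0.0820). Clustering the libraries without alignment to each other gave 0 of 6 members called in gCap ECs, with 4 of all 9504 genes called (747 had an unadjusted p under 0.05, and no DESeq2 fit was made there), and the lower resolution of clustering gave 0 of 7, where 304 of all 9452 genes were still called. Without alignment, an unnamed cluster with 242 and 150 ECs of the libraries labelled ERG CKO, described further on, lay outside the gCap class.

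**Figure D4:**
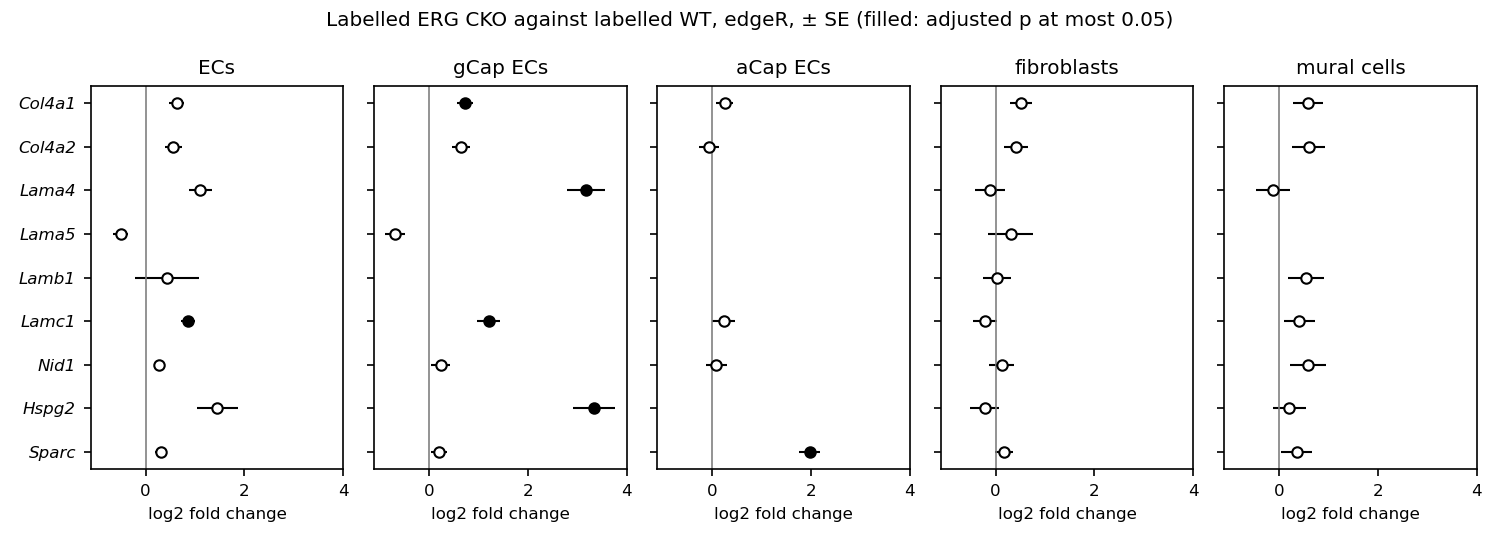
Log2 fold change with its SE (horizontal axis) for each member that passed the filter on low counts in 5 cell classes, libraries labelled ERG CKO against those labelled WT. Filled points, at an adjusted p of at most 0.05, are Lamc1 in ECs, Col4a1, Lama4, Lamc1 and Hspg2 in gCap ECs and Sparc in aCap ECs.

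Much of the gCap difference in Lama4 and Hspg2 lay in EC cluster 6, of 129 cells, 19 and 28 in the libraries labelled WT and 43 and 39 in those labelled ERG CKO. The 11 EC markers summed there to 23144 and 26240.5 CPM against 15457 and 16522 CPM, the libraries labelled ERG CKO being lower, with mural markers at 21.5 to 64.8 CPM and fibroblast markers at 0 to 88.3 CPM. In the libraries labelled ERG CKO it gave 27.1% and 40.0% of the Lama4 UMIs of ECs and 34.2% and 42.9% of their Hspg2 UMIs, from 5.93% and 7.86% of the ECs. Within it, Hspg2 stood at 1 and 2 UMIs against 50 and 21 UMIs (294 and 169 CPM), Lama4 at 0 and 3 UMIs against 32 and 22 UMIs, and Lamc1 at 0 and 0 UMIs against 29 and 19 UMIs. Col4a1 rose there from 923 and 583 CPM to 2573 and 1879.7 CPM (log2 fold change 1.66, SE 0.29, adjusted p = 0.0100, edgeR). Of its 7 members tested, 5 were called (Col4a1, Col4a2, Lama4, Lamc1 and Hspg2), where 3.79% of all genes were. Lama4, Lamc1 and Hspg2 passed the filter on low counts only through the libraries labelled ERG CKO, and the cluster was singled out after its values were seen, so nothing is read from this count. The cells of cluster 6 were shallow, at a median of 2453 to 3372 UMIs a cell. Hspg2 is among the leading genes of this cluster, although the members were left out of the genes used to cluster.

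Without cluster 6, an alternative added after its values were seen, 0 of 7 members tested were called in gCap ECs, while 160 of all 9147 genes were called. The log2 fold changes then were 2.22 for Lama4 (SE 0.57, adjusted p = 0.0949), 0.62 for Lamc1 (SE 0.27, adjusted p = 0.373), 0.43 for Col4a1 (SE 0.16, adjusted p = 0.293) and -0.73 for Lama5 (SE 0.20, adjusted p = 0.121) in edgeR, and Hspg2 no longer passed the filter. In EC cluster 1, which stayed unnamed, 0 of 6 members were called (0.730% of all genes). Lamc1 stood there at 10.7 and 15.3 CPM against 45.3 and 40.8 CPM (log2 fold change 1.69, SE 0.39, adjusted p = 0.0721, edgeR).

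**Figure D5:**
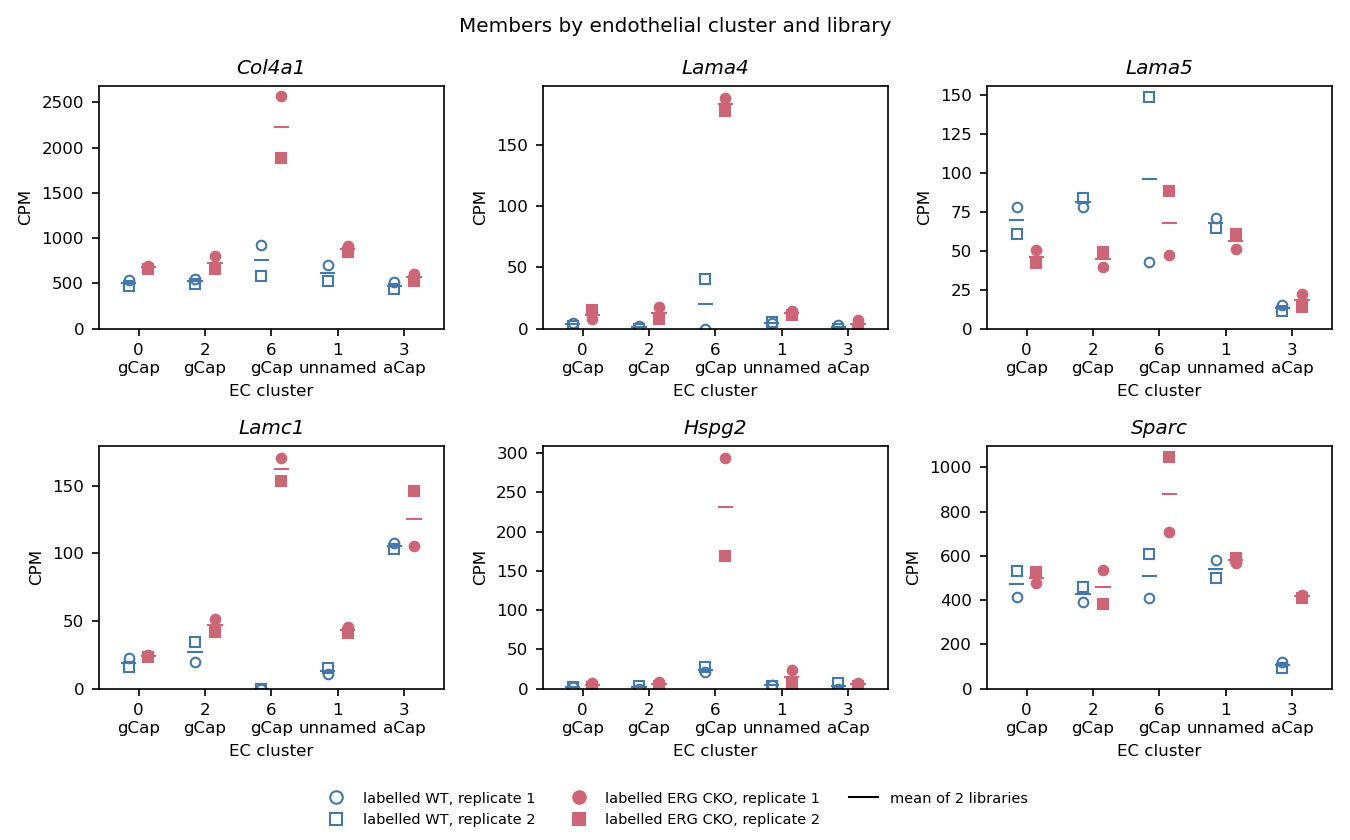
CPM of 6 members (vertical axis) in the EC clusters 0, 2 and 6 (gCap), 1 (unnamed) and 3 (aCap), 1 point for each library and a line at each group's mean. In cluster 6 the libraries labelled ERG CKO stand apart for Col4a1, Lama4, Lamc1 and Hspg2, and in cluster 3 for Sparc.

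When the libraries were clustered without alignment, some clusters held ECs of the libraries labelled ERG CKO almost alone. One such unaligned cluster held 242 and 150 cells of the libraries labelled ERG CKO and 0 and 6 of those labelled WT, and another, aCap-like, held 117 and 122 against 0 and 0. In the first, Col4a1 stood at 1311 and 1108 CPM, Hspg2 at 63.4 and 41.6 CPM and Lama4 at 48.1 and 35.8 CPM, in the libraries labelled ERG CKO. Haemoglobin genes led this cluster, followed by F8 and Gja1. In an unaligned cluster that all 4 libraries shared, Col4a1 was at 548 and 465 CPM against 471 and 513 CPM, and Hspg2 at 2.65 and 1.94 CPM against 2.74 and 0 CPM, with overlap. These clusters were formed from the same cells, so the values are a description with no test.

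Beside these values, depth differed: gCap ECs had a median of 4009 and 3840 UMIs a cell in the libraries labelled WT and 5077 and 4475 in those labelled ERG CKO. With Lama4, the share of gCap ECs with a UMI was 1.52% and 0.813% against 9.29% and 10.9%, and after thinning to 1000 UMIs 0% and 0.273% against 2.51% and 4.07%, with 2, 3, 1 and 3 cells too shallow. With Hspg2, it was 0.909% and 1.36% against 8.57% and 5.71%, and 0.305% and 0.546% against 2.87% and 1.74% after thinning. T cells held 0% to 0.373% for Lama4 and 0% to 1.16% for Hspg2 before thinning. Platelet markers were summed at 34.5 and 38.5 CPM against 146 and 57.0 CPM in gCap ECs. Haemoglobin and other erythroid markers were summed at 36.7 and 46.6 CPM against 167 and 6839 CPM in gCap ECs, and at 35.1 and 50.3 CPM against 1546 and 2208 CPM in ECs, and the part of either list in the results was not tested.

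In aCap ECs, Sparc was the only one of 5 members tested that was called, where 11.0% of all genes were called. Its call held in the alternatives that kept all 4 libraries, and its log2 fold changes ran from 1.78 to 2.58 over all 14. Leaving out doublets or mixed subclusters gave the same 772 genes called as the main fit. Without alignment, 96 and 89 aCap ECs labelled ERG CKO lay in the aCap-like cluster that held 0 labelled WT. Of those labelled WT, 43 and 71 lay in another aCap-like cluster, with 4 and 1 labelled ERG CKO. Both were summed as aCap in that alternative, so it kept the same contrast. Lama4, Lama5, Lamb1 and Hspg2 were too low to test in aCap ECs. EC markers were summed at 26690.1 and 26263 CPM against 15999.6 and 16654 CPM in aCap ECs, lower in both libraries labelled ERG CKO. Fibroblast markers were summed there at 43.1 and 46.8 CPM against 114 and 146 CPM, higher in both, and the part of either list in the Sparc result was not tested.

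The effect differed between capillary classes. In a test of the interaction in edgeR, the log2 fold change of Sparc was higher in aCap than in gCap ECs, by 1.77 (SE 0.22, adjusted p = 0.000480), and that of Col4a2 was lower, with a difference of -0.76 (SE 0.19, adjusted p = 0.0327). Col4a2 itself passed the test in neither class, with log2 fold changes of -0.07 (SE 0.20) in aCap and 0.65 (SE 0.19) in gCap ECs. These were 2 of the 8 members tested, against 4.50% of all genes. For Lama5 the difference was 1.18 (SE 0.52, adjusted p = 0.276), and for Lamc1 -1.02 (SE 0.32, adjusted p = 0.0986). The Lama5 difference rests on 5 and 6 UMIs against 15 and 8 UMIs in aCap ECs, too low to test there alone. Col4a2 lost its call without either library labelled WT (adjusted p = 0.0926 and 0.296) or without the second labelled ERG CKO (adjusted p = 0.111), in edgeR.

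In fibroblasts 0 of 9 members were called (1 at an unadjusted p under 0.05, 0 called in DESeq2), against 0.874% of all genes, and in mural cells 0 of 8 (0 at an unadjusted p under 0.05, 0 called in DESeq2), against 0.0233%. The largest log2 fold change in mural cells was 0.60, for Col4a2 (SE 0.34, adjusted p = 0.970), and in fibroblasts 0.52, for Col4a1 (SE 0.22, adjusted p = 0.502), in edgeR. EC markers summed to 6203 to 7558 CPM in fibroblasts and 4141 to 10196 CPM in mural cells. Platelet markers summed to 74.6 and 68.7 CPM against 449 and 806 CPM in fibroblasts, and to 100.2 to 1191 CPM in mural cells. Fibroblast markers in fibroblasts were lower in both libraries labelled ERG CKO, at 19729 and 23113 CPM against 12016 and 14674 CPM. The part of these lists in the values was not tested. Without the subcluster of 87 cells with EC markers, left out after its values were seen, 0 members were called in either class. A subcluster of 138 cells with epithelial markers stayed in. So did an unnamed one of 105 cells, whose leading genes included Slc34a2, Nrgn, Pf4 and Ppbp. The levels and shares of these 2 classes therefore include cells with markers of other classes.

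Set against ECs, the effect in fibroblasts was lower for Hspg2, by -1.75 (SE 0.44, adjusted p = 0.0287), and for Lamc1, by -1.07 (SE 0.28, adjusted p = 0.0486), on the log2 scale in an edgeR interaction test, 2 of 9 members against 1.12% of all genes. Without the second library labelled WT, or without the first labelled ERG CKO, 0 were called, and without the first labelled WT 1 was. The Hspg2 difference moved to -0.86 without the first library labelled ERG CKO and to -2.52 without the first labelled WT. For mural cells against ECs 0 of 9 were called (2 had an unadjusted p under 0.05, with no DESeq2 fit), against 0.228%, and the difference for Hspg2 was -1.38 (SE 0.46, adjusted p = 0.445).

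Vein and artery ECs were few. In vein ECs Col4a1 stood at 327 and 409.7 CPM against 712 and 647 CPM, without overlap (log2 fold change 0.81, SE 0.25, adjusted p = 0.385, edgeR). Hspg2 there was at 1 and 2 UMIs against 21 and 5 UMIs, of which 1 cell held 80.0% in the second library labelled ERG CKO. In artery ECs Lama5 was at 109 and 84.7 CPM against 64.7 and 74.1 CPM, from 8 to 11 UMIs a library, and was not tested.

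Of the 61 other basement membrane genes (further chains, other components, receptors, collagen folding and crosslinking), 35 were tested in gCap ECs, and 4 rose and 1 fell, where 3.61% of all genes were called. Lama1, Col15a1 and Fbln2 passed the filter there only through the libraries labelled ERG CKO. Lama1, an alpha chain typical of the embryo, rose (1.47 and 1.35 CPM against 39.3 and 11.6 CPM, log2 fold change 4.19, SE 0.68), as did Col15a1, for a collagen of the outer face of the membrane (3.67 and 4.05 CPM against 20.3 and 18.6 CPM, 2.28, SE 0.43). Fbln2 (1.88, SE 0.42), for a fibulin, and Sparcl1 (1.09, SE 0.18), a relative of Sparc, rose too. Hmcn1, for hemicentin-1, fell by 0.98 on the log2 scale (SE 0.18), from 535 and 574 CPM to 247 and 332 CPM. In ECs as a whole, 40 were tested, Fbln2 rose (1.15, SE 0.18) and Hmcn1 fell (-0.92, SE 0.15), where 2.84% of all genes were called. Their medians were 0.23 in gCap ECs and 0.17 in ECs, against -0.0023 and 0.0074 over all genes.

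In aCap ECs, 28 of the 61 were tested, 3 rose and 3 fell, where 11.0% of all genes were called. Mmrn2 and Agrn passed the filter there only through the libraries labelled ERG CKO. Bcam, a receptor for the laminin alpha5 chain, fell by 1.97 on the log2 scale (SE 0.18, adjusted p = 2.34e-07, edgeR), from 754 and 887 CPM to 210.4 and 213 CPM. Ntn4, a netrin that binds laminin (-1.18, SE 0.25), and Pxdn, the enzyme that crosslinks collagen IV (-0.81, SE 0.22), fell with it. Mmrn2, an endothelial matrix protein (3.83, SE 0.51), Agrn, for agrin (1.71, SE 0.50), and Itgb1, for integrin beta1 (0.73, SE 0.18), rose. In fibroblasts 44 were tested and Col4a3 was called higher (3.61, SE 0.82, adjusted p = 0.0498), on 2 and 0 UMIs against 23 and 4 UMIs, where 0.874% of all genes were called. It passed the filter only through the libraries labelled ERG CKO. It is also a leading gene of an epithelial-like cluster, 138 mesenchymal cells fell in a subcluster with epithelial markers, and epithelial markers in fibroblasts were summed at 678 and 876 CPM against 1490.2 and 461 CPM, whose part was not tested. In mural cells 26 were tested and 0 called.

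The genes most alike in pattern were sought by the correlation of log2(CPM + 10) over 69 sums, 18 cell classes by library, among 14655 genes. Nearest to Col4a1 were Col4a2 (Pearson r = 0.98), Dlc1 and Serpinh1, and nearest to Sparc were Col4a1 (0.96), Parva and Phldb2. Lama4 lay nearest to Col5a1 (0.92), Fbn1 and Mxra8, and Hspg2 to Kank2 (0.89), Lama4 and Col5a2. Nid1 lay nearest to Phldb1 (0.95), Lhfp and Btbd3, and Lama5 to Meis2 (0.89), Osmr and Atp8b1. Lamc1 lay nearest to Nid1 (0.88), and Lamb1 to Tnfrsf19 (0.98). The sums share libraries and differ in depth, so these are descriptions.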

How the data were processed

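Libraries of single lung cells were aligned and counted by the authors, with Cell Ranger 3.1.0 against mm10 per the submitters' processing notes; the annotation and chemistry are not given in the sources used here. The deposited file holds raw UMI counts per gene and cell, of 20076 genes, with 0 columns outside the 4 samples. Its cells had at least 500 UMIs and 300 genes. Seurat 5.3.0 clustered the cells (2000 variable genes without the members, wider list, Erg and sex-linked genes; alignment of libraries; resolution 0.8, and 0.6 for ECs), and clusters were named from markers. Scrublet called 60 cells doublets (0.641%), which stayed in. Counts were summed per library and class, and edgeR 4.0.16 (TMM, filterByExpr, quasi-likelihood) compared genotypes over the 4 libraries, with Benjamini-Hochberg adjustment over all genes tested. DESeq2 1.42.0, thinning and other settings were alternatives. The test was checked on simulated data. Barcodes shared between libraries numbered 7. Replicates differed by more than sampling noise (chi-square per degree of freedom 15.9 and 17.4). Each mouse gave 1 library, so p-values measure the spread between 2 mice a group. Loci are from GENCODE M21. The named genes are the 9 members and, of a wider list of 61, those called in a class. The members and lists were chosen with earlier results of these data known. Exceptions to the naming rule within myeloid and within mesenchymal classes were added after the clusters were seen.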

Additional observations from a re-analysis of the deposited data

Results flagged for a closer look

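In 4 cases the effect of genotype differed between cell classes by an edgeR test of the interaction. Between fibroblasts and ECs these were Hspg2 (difference -1.75 on the log2 scale) and Lamc1 (-1.07). Both were higher in the ECs labelled ERG CKO, where Lamc1 was called and Hspg2 was not, and neither was called in fibroblasts. Between aCap and gCap ECs these were Sparc (1.77) and Col4a2 (-0.76). Groups of 2 libraries are too small for a test of single libraries against their group.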

How the results depend on the processing

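In aCap ECs 1 member was called in every alternative that kept all 4 libraries. Leaving out doublets or mixed subclusters gave the same 772 genes called there as the main fit. In fibroblasts and mural cells 0 members were called. In ECs 1 member was called, and 2 were without alignment of the libraries, 2 after thinning to 1000 UMIs, 5 with no filter on low counts and 0 without cluster 6. In gCap ECs 4 were called, and 0 were at a lower resolution, 0 without alignment, 1 after thinning and 0 without cluster 6. The last of each was chosen after seeing the data, as was leaving out mixed subclusters. Leaving out 1 library gave 0 to 5 members in ECs, 3 to 5 in gCap ECs, 0 to 3 for fibroblasts against ECs and 1 to 2 for aCap against gCap ECs. With the replicate block 6 members were called in ECs and 6 in gCap ECs. The numbers mark no shared animal, yet same-numbered libraries deviated in part together (correlation of deviations 0.31 in ECs and 0.23 in gCap ECs). Shares of UMIs by class, thinned or without alignment, moved by more than their SD in 17 cases and stayed within it in 91. The causes were not tested. Reversed log2 fold changes, none of them called, were as follows. Lama5 (0.23, thinned) and Nid1 (-0.15, no alignment) turned in gCap ECs. In fibroblasts Lamb1 (-0.33, thinned) and Lama4 (0.042, mixed subclusters left out) turned. In mural cells Col4a1 (-0.0087) and Sparc (-0.051) turned after thinning, Hspg2 (-0.96) and Lama4 (0.37) without platelet cells, and Lama4 (0.021) at no more than 10% mitochondrial UMIs. Leaving out 1 library each moved Lamb1 in ECs from -0.27 to 1.44 (-0.23 without WT 2). In aCap ECs it moved Lamc1 from -0.0035 to 0.44, Col4a2 from -0.30 to 0.12 and Nid1 from -0.22 to 0.35. In fibroblasts it moved Lamc1 from -0.41 to 0.0021, Lama5 from -1.28 to 0.58, Hspg2 from -0.33 to 0.044, Lama4 from -0.56 to 0.42, Nid1 from -0.077 to 0.41 and Lamb1 from -0.31 to 0.47. In mural cells it moved Hspg2 from -0.16 to 0.38 and Lama4 from -0.36 to 0.030.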
